A study of Mus musculus with 16 samples.

Results

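The Krüppel-like factors described here are Klf2, Klf3, Klf4, Klf5, Klf6, Klf7, Klf9, Klf10, Klf13 and Klf16, measured in cultures of mouse dorsal root ganglia. They were chosen by gene symbol, and every array probe carrying one of the 10 symbols was taken. Of the 18138 gene symbols on the array, 9 were members, with 12 probes between them; Klf3 was not analysed here. A probe counted as measurable when 2 or more of the 16 arrays read it above a deposited intensity of 16. That left 10 probes of 8 member genes among the 15086 measurable probes. The probe of Klf10, a factor first described as induced by TGF-β, was above 16 on 0 of 16 arrays, and 1 of the 3 Klf4 probes (ILMN_1221264) was above 16 on 1 array.

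All samples came from ganglia of CD-1 embryos at embryonic day 13, grown as spot cultures whose axons extend outward. Lentivirus was added on day 4 in culture and carried either a control short hairpin RNA (control shRNA), shRNA against HIF-1α, or human HIF-1α cDNA in the vector FUGW, which expresses it constitutively. HIF-1α accumulates when oxygen is low and, with a partner subunit, turns on genes that adapt the cell. On day 7 cultures were collected uninjured, or 3 h or 12 h after the axons had been cut with a blade. There were 6 control shRNA arrays, 6 HIF-1α shRNA arrays and 4 HIF-1α overexpression arrays. Each construct had 2 arrays per time, except that overexpression had 1 uninjured array and 1 array at 12 h. The labels name no empty-vector control for overexpression, so both HIF-1α constructs were compared with the same 6 control shRNA arrays. They name no separate cultures or animals for the replicates either, and the p-values therefore reflect variation among these arrays alone, some or all of which may be technical. The number of culture or virus batches behind each construct is not given, and such a batch cannot be told apart from the construct.

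Krüppel-like factors are zinc-finger transcription factors that bind GC-rich and CACCC-type sequences in promoters, and they share a nearly identical DNA-binding end while their other end recruits activators or repressors. In neurons of the central nervous system, Klf6 and Klf7 are known to promote axon growth, whereas Klf4 and Klf9 are known to limit it. Klf7 is also needed for the development of pain-sensing neurons of the ganglion, where it acts on the gene of the nerve growth factor receptor TrkA. Klf9 is known as a gene induced by thyroid hormone and glucocorticoids.

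The sequences before the start sites of the 4 genes with a known role in axon growth are shown because the constructs were aimed at a factor whose binding sites hold the letters ACGTG or GCGTG. Each line gives the 250 bases before the gene's start, on the gene's strand, from RefSeq's table for GRCm38.p6, which held 7 of the 10 members (Klf2, Klf3, Klf4, Klf6, Klf7, Klf9 and Klf13). Capitals mark ACGTG or GCGTG on either strand. The windows lie at chr19:23140976-23141225 (plus strand) for Klf9, chr13:5861239-5861488 (plus strand) for Klf6, chr4:55532476-55532725 (minus strand) for Klf4 and chr1:64121390-64121639 (minus strand) for Klf7.
Klf9: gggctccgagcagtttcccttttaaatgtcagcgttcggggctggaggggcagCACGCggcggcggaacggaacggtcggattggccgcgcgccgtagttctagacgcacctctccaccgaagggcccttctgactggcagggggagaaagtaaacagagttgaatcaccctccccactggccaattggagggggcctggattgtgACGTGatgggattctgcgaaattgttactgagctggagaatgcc
Klf6: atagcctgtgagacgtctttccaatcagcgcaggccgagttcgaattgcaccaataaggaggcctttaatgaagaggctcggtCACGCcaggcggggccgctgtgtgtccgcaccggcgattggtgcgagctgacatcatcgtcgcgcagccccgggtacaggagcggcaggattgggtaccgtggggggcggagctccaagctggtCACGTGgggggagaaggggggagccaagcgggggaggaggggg
Klf4: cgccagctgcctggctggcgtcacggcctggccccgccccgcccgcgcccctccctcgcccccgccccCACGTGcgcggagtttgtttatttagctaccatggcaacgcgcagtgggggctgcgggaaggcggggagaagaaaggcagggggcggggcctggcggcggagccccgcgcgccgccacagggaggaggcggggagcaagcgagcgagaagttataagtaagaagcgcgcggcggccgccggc
Klf7: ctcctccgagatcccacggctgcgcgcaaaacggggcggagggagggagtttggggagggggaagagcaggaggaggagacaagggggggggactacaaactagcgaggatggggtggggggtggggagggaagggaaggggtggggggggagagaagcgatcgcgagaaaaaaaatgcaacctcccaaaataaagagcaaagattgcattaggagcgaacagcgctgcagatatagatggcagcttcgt

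In the Klf9 window ACGTG began 44 bases and GCGTG 197 bases before the start. In Klf6, ACGTG lay on both strands within the overlapping palindrome CACGTG, 43 bases before the start, and GCGTG began 167 bases before it. Klf4 held the same palindrome 182 bases before its start, and Klf7 held neither pair of letters in this window. Klf3 and Klf13 each held 1 GCGTG, and Klf2 held neither. Among all 32851 promoter windows of this length, 16.6% held ACGTG, 28.2% GCGTG, 38.6% held either, and 6.02% held the palindrome. The letters CACCC, present in 52% of all windows, was found in Klf2, Klf3, Klf7, Klf9 and Klf13. The letters GGGCGG, present in 32.7%, was found in all 7 except Klf9. No other letters were searched; the search was made after the expression values were known, and its window was shortened from a first one that also took bases after the start. A match describes the letters of the window and is not a measured binding site.

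Expression is given as deposited intensity for single arrays, in arbitrary units after the authors' normalization, and as log2 intensity after background correction with an offset of 50 for differences and tests. The offset understates the change of dim probes. Intensities of different probes cannot be set against each other. Calls rest on a limma fit over all 15086 probes and need a p under 0.05 after Benjamini-Hochberg adjustment. Arrays of 1 construct and time correlated at 0.993 to 0.995 over probes, those of 1 construct at other times at 0.991 to 0.995, and those of different constructs at 0.917 to 0.953. The mouse Hif1a probe (ILMN_2852034) read 30 ± 7.96 (SD, n = 6) in control, -2.64 ± 3.76 (SD, n = 6) with HIF-1α shRNA and 0.721 ± 4.44 (SD, n = 4) with human HIF-1α. As it was low under both constructs, it does not by itself check the knockdown label.

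The comparison of HIF-1α shRNA with control shRNA asked how the factors differed when HIF-1α was targeted for knockdown. Averaged over the 3 times, 8 of the 10 measurable member probes were called higher and 0 lower, against 56.8% of all probes called, 27.9% higher and 28.9% lower. The 8 include 2 dim probes that were never above 16 in control, of Klf2 and of Klf4 (ILMN_1241903); they counted as measurable only through arrays of the other constructs, so a difference from control was built into their choice. With no filter 8 of 12 member probes were called higher, where 16.6% of all probes were, and among probes above 16 on at least 8 arrays, which leaves out both, 6 of 8 were, where 30.6% of all were. The member probes had a median log2 difference of 0.3, beside -0.02 for all probes. With overexpression against control, 2 member probes were called higher and 3 lower, where 53.3% of all probes were called, 24.3% higher and 29% lower. Their median was 0.08, beside -0.03 for all probes. With overexpression against HIF-1α shRNA, 0 were called higher and 6 lower, where 60.1% of all probes were called, 28.7% higher and 31.4% lower. Here the medians were -0.31 and -0.01. The 6 include Klf2, which reached the 2-array filter only with its HIF-1α shRNA arrays, so its difference was partly built into its choice. Among probes above 16 on at least 8 arrays 5 of 8 were lower, where 67.4% of all were called, 32.2% higher. The last comparison shares its arrays with the other two. Calls were common on the whole array in each comparison, so the members' counts are read only against these shares.

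**Figure D1:**
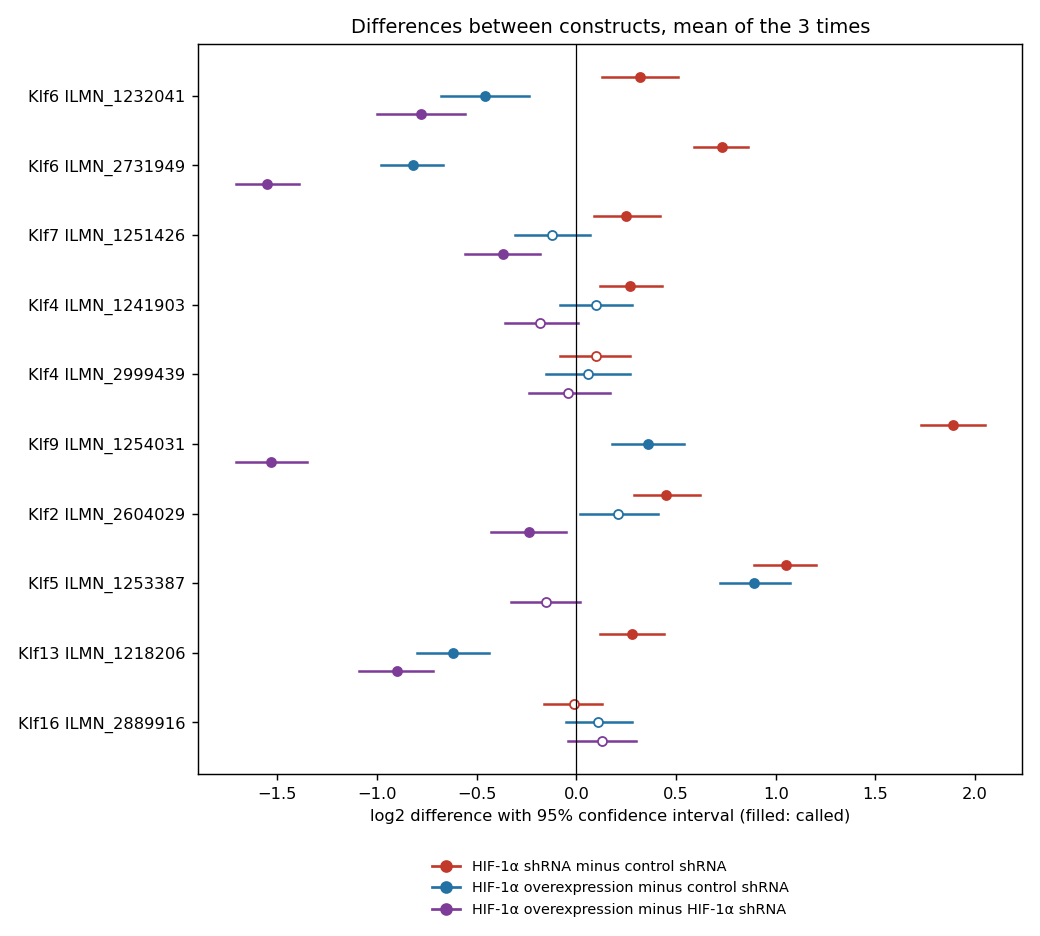
Differences in log2 intensity between constructs for the 10 measurable member probes, averaged over the 3 times, with 95% confidence intervals; filled points were called at an adjusted p under 0.05. Klf9 and Klf5 lay farthest to the right with HIF-1α shRNA (1.89 and 1.05), and Klf6 lay on opposite sides of 0 under the 2 constructs (0.73 and -0.82 for its brighter probe).

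Of the growth-promoting members, Klf6, an immediate-early type factor that supports axon growth, has 2 probes. Its brighter probe (ILMN_2731949) read 3964 and 3441 in uninjured control cultures, 3245 and 3105 at 3 h and 3322 and 3308 at 12 h. With HIF-1α shRNA it read 6145 and 6041 uninjured, 5623 and 6172 at 3 h and 5197 and 4822 at 12 h. Under overexpression it read 2135 uninjured, 1979 and 1912 at 3 h and 1608 at 12 h. The 3 constructs did not overlap: every HIF-1α shRNA array lay above every control array, and every overexpression array lay below. Klf6 was 1.65-fold higher with HIF-1α shRNA (log2 difference 0.73, SE 0.0661, adjusted p = 7.61e-09) and 1.77-fold lower under overexpression (log2 difference -0.82, SE 0.0763, adjusted p = 1.33e-08). Between overexpression and HIF-1α shRNA the log2 difference was -1.55 (SE 0.0763, adjusted p = 4.2e-13).

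The dimmer Klf6 probe (ILMN_1232041) ran from 65.5 to 110.2 in control (median 81.4, n = 6), from 96 to 179.9 with HIF-1α shRNA (median 114, n = 6) and from 22.6 to 66.2 under overexpression (median 41.4, n = 4). It moved the same way as the brighter one, but control overlapped with both constructs. It was called higher with HIF-1α shRNA (0.32, SE 0.0917, adjusted p = 0.00498) and lower under overexpression (-0.46, SE 0.106, adjusted p = 0.00101). The first call was lost when deposited values were floored at 16 in place of the offset (0.54, adjusted p = 0.0746). The second was lost without the single 12 h overexpression array (-0.29, adjusted p = 0.0666). Across the 16 arrays the 2 Klf6 probes had a Pearson r of 0.81, a description over arrays that share their constructs.

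Klf7, the member tied to TrkA expression in sensory neurons, varied less (ILMN_1251426). It ran from 8219 to 10461 in control (median 9706), from 9468 to 12923 with HIF-1α shRNA (median 11616) and from 8020.1 to 9026 under overexpression (median 8922). The HIF-1α shRNA and control arrays overlapped, as did overexpression and control, while HIF-1α shRNA and overexpression did not overlap. Klf7 was called 1.19-fold higher with HIF-1α shRNA (0.25, SE 0.0792, adjusted p = 0.0104). Under overexpression its difference from control was -0.12 (95% interval -0.31 to 0.07, adjusted p = 0.288), which passed no threshold. Between overexpression and HIF-1α shRNA it was -0.37 (SE 0.0915, adjusted p = 0.00149).

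**Figure D2:**
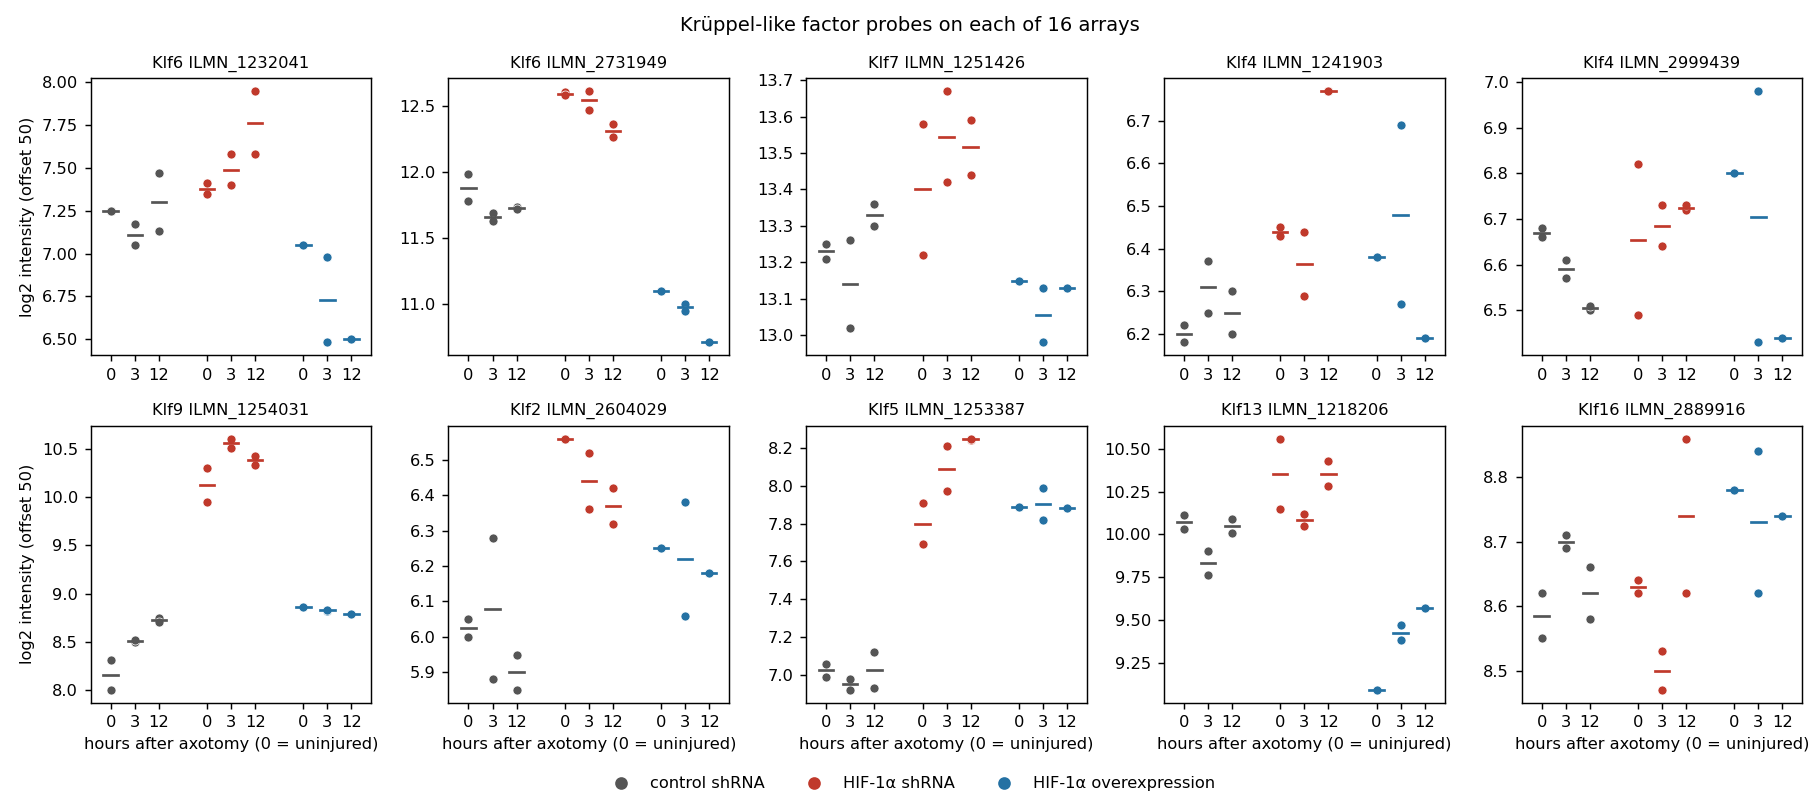
Log2 intensity of each measurable member probe on all 16 arrays, by construct and by hours after axotomy (0 is uninjured); points are arrays, short lines are group means, and each panel has its own vertical range. Klf9 sits between 9.95 and 10.61 with HIF-1α shRNA, above all control arrays (8 to 8.75), and the brighter Klf6 probe separates the 3 constructs.

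Among the growth-limiting members, Klf9 (ILMN_1254031) differed from control with HIF-1α shRNA by more than any of the other 9 measurable member probes. It read 190.0 and 251 in uninjured control cultures, 296 and 301 at 3 h and 363 and 353 at 12 h. With HIF-1α shRNA it read 922 and 1195 uninjured, 1394 and 1492 at 3 h and 1311 and 1227 at 12 h. Under overexpression it read 396 uninjured, 386 and 389 at 3 h and 377 at 12 h. All 6 HIF-1α shRNA arrays lay above the other 10, and the 4 overexpression arrays lay just above the highest control array. With HIF-1α shRNA the ratio of mean intensities was 4.3, and the fitted difference was 3.71-fold (1.89, SE 0.0757, adjusted p = 2.19e-14), ranked 184 among 15086 probes by p. Under overexpression Klf9 was called 1.28-fold higher than control (0.36, SE 0.0874, adjusted p = 0.00163).

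The overexpression call for Klf9 depended on the uninjured cultures. At single times its log2 difference from control was 0.7 uninjured (adjusted p = 0.00199), 0.32 at 3 h (adjusted p = 0.0673) and 0.06 at 12 h (adjusted p = 0.807). Without the single uninjured overexpression array the average fell to 0.19 (adjusted p = 0.144). Overexpression arrays stayed within 377 to 396, while control arrays were higher at the later times. Whether the overexpression difference changed with injury was tested with limma's F test and passed no threshold (unadjusted p = 0.0359, adjusted p = 0.825).

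Klf4, known as a reprogramming factor and a limiter of axon growth, was dim on all its probes. ILMN_2999439 ran from 23.9 to 36 in control (median 29.8), from 23.3 to 45.9 with HIF-1α shRNA (median 38.9) and from 19.7 to 59.9 under overexpression (median 32.5), with all 3 constructs overlapping. Its difference from control was 0.1 with HIF-1α shRNA (95% interval -0.08 to 0.27, adjusted p = 0.361) and 0.06 with overexpression (95% interval -0.15 to 0.27, adjusted p = 0.643). ILMN_1241903 was above 16 on 0 of 6 control arrays, 5 of 6 HIF-1α shRNA arrays and 2 of 4 overexpression arrays.

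The second Klf4 probe averaged 9.66 ± 3.81 (SD, n = 6) in control and 26.2 ± 13 (SD, n = 6) with HIF-1α shRNA. It was called higher (0.27, SE 0.0748, adjusted p = 0.00398), at least 1.64-fold, a bound that takes 16 in place of the control level. The difference was 0.45 with an offset of 16 and 0.64 with values floored at 16. The 2 arrays at 12 h with HIF-1α shRNA read 42.1 and 42.8, and the other 4 read 11.8 to 20.9. The 2 Klf4 probes thus disagree on the call, and their Pearson r over 16 arrays was 0.1.

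The pairs of opposite known role were then set side by side on each array, as the mean log2 intensity of Klf6 and Klf7 minus that of Klf4 and Klf9. Only the shift of this difference between constructs can be read, since its absolute size depends on the probes. It ran from 4.78 to 5.25 in control (median 4.92, n = 6), from 4.33 to 4.71 with HIF-1α shRNA (median 4.42, n = 6) and from 4.06 to 4.44 under overexpression (median 4.3, n = 4). Both constructs lay below all control arrays. The shift was -0.50 with HIF-1α shRNA and -0.68 with overexpression, beside an SD of 0.137 between arrays of 1 group, and has no test because it is a score over chosen members. Floored values gave -0.71 with HIF-1α shRNA.

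The members behind the shift differed between the constructs, which share their control arrays. With HIF-1α shRNA both growth-promoting members were higher (0.73 for the brighter Klf6 probe, 0.25 for Klf7) and Klf9 was higher by more (1.89). Under overexpression Klf6 was lower (-0.82) and Klf9 higher (0.36), with Klf7 (-0.12) and both Klf4 probes (0.1 and 0.06) not called. Klf6 minus Klf9 alone ran from 2.98 to 3.97 in control, 1.92 to 2.65 with HIF-1α shRNA and 1.92 to 2.25 under overexpression. Within each construct its highest values were those of the uninjured arrays. These were 3.97 and 3.47 in control, 2.65 and 2.28 with HIF-1α shRNA, and 2.25 on the single uninjured overexpression array.

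**Figure D3:**
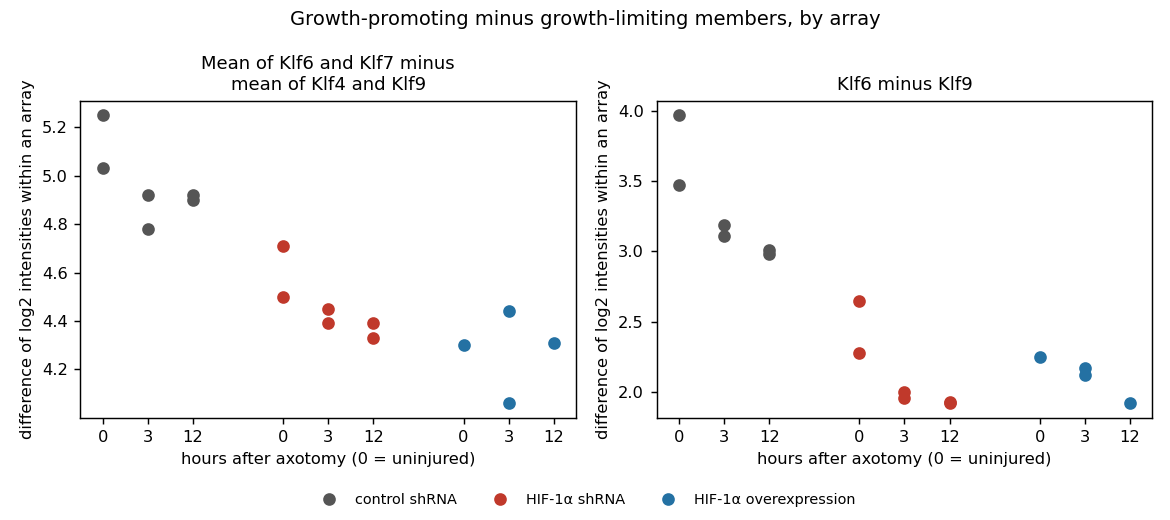
Difference of log2 intensities within each array, for the mean of Klf6 and Klf7 minus the mean of Klf4 and Klf9 (left) and for Klf6 minus Klf9 (right), by construct and hours after axotomy; each point is 1 array, and the vertical axes do not start at 0. In both panels all HIF-1α shRNA and overexpression points lie below all control points (4.78 and 2.98 are the lowest control values).

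Klf5, known for driving growth of epithelial and smooth muscle cells, was higher under both constructs (ILMN_1253387). It read 60.2 and 67 in uninjured control, 59.4 and 54.2 at 3 h and 72.7 and 54.9 at 12 h. With HIF-1α shRNA it read 174 and 140.0 uninjured, 229.6 and 184 at 3 h and 235 and 238 at 12 h. Under overexpression it read 171 uninjured, 159 and 187 at 3 h and 169 at 12 h. No array of either construct overlapped with control, and the 2 constructs overlapped with each other. The ratio of mean intensities was 3.26 with HIF-1α shRNA and 2.79 with overexpression. The fitted differences were 1.05 (SE 0.0728, adjusted p = 1.21e-10) and 0.89 (SE 0.0841, adjusted p = 1.71e-08), and 1.69 and 1.48 with values floored at 16. Overexpression against HIF-1α shRNA gave -0.15 (95% interval -0.33 to 0.02, adjusted p = 0.122). These 2 rises share the control arrays.

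Klf2, known for its response to blood flow in endothelial cells, was near background (ILMN_2604029). It was above 16 on 0 of 6 control arrays, 4 of 6 HIF-1α shRNA arrays and 1 of 4 overexpression arrays. Intensity ran from -9.18 to 11.2 in control and from 13.1 to 27.6 with HIF-1α shRNA, without overlap. Klf2 was called higher (0.45, SE 0.0802, adjusted p = 5.83e-05), at least 1.33-fold by the same bound, and by 0.85 with an offset of 16. Under overexpression the difference was 0.21 (SE 0.0926, adjusted p = 0.0596); it passed with an offset of 16 (0.43, adjusted p = 0.0408), without replicate 1 of overexpression at 3 h (adjusted p = 0.022) and without replicate 2 of control at 3 h (adjusted p = 0.0135).

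The call for Klf2 between overexpression and HIF-1α shRNA (-0.24, adjusted p = 0.0303) was partly built into the probe's choice. This call was -0.42 with an offset of 16 and -0.40 with floored values. It was lost without replicate 1 of overexpression at 3 h (-0.19, adjusted p = 0.0934) and without the uninjured overexpression array (-0.21, adjusted p = 0.122). It was also lost without replicate 1 of HIF-1α shRNA at 12 h (-0.22, adjusted p = 0.0671) or at 3 h (-0.21, adjusted p = 0.0685).

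Klf13, a close relative of Klf9 within the family, ran from 803 to 1041 in control (median 969), from 996 to 1445 with HIF-1α shRNA (median 1123) and from 478 to 694 under overexpression (median 621) (ILMN_1218206). All 4 overexpression arrays lay below the other 12, and HIF-1α shRNA overlapped with control. Klf13 was 1.54-fold lower under overexpression (-0.62, SE 0.0875, adjusted p = 4.72e-06) and 1.22-fold higher with HIF-1α shRNA (0.28, SE 0.0758, adjusted p = 0.00322). Like Klf6, it was thus called in opposite directions under the 2 constructs, and overexpression against HIF-1α shRNA gave -0.90 (SE 0.0875, adjusted p = 1.62e-08). Klf16, another member of the same subgroup, ran from 288 to 397 over all 16 arrays (ILMN_2889916). Its differences from control were -0.01 with HIF-1α shRNA (95% interval -0.16 to 0.13, adjusted p = 0.885) and 0.11 with overexpression (95% interval -0.05 to 0.28, adjusted p = 0.243).

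Arrays of both groups did not overlap for 4 of 10 member probes with HIF-1α shRNA against control, 4 with overexpression against control and 5 with overexpression against HIF-1α shRNA. The shares of all probes without overlap were 36.2%, 39.9% and 45.4%, so the members' counts were near the background.

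At single times, HIF-1α shRNA against control called 4 member probes uninjured, 5 at 3 h and 6 at 12 h, all higher. Of all probes 36.7%, 40.6% and 38.6% were called, and 18.8%, 19.8% and 19.2% were called higher. Klf9, Klf5, Klf2 and the brighter Klf6 probe were called at all 3 times, with Klf9 at 1.97, 2.05 and 1.65. The Klf2 probe reached the 2-array filter only with its HIF-1α shRNA arrays, so its calls were partly built into its choice. Among probes above 16 on at least 8 arrays the counts were 3, 4 and 4 of 8, all higher. Of all such probes 43.3%, 47.1% and 45.3% were called, and 21.4%, 22.3% and 21.6% were called higher. Klf7 was added at 3 h (0.41, adjusted p = 0.023). At 12 h the dimmer Klf6 probe (0.46, adjusted p = 0.0259) and the Klf4 probe ILMN_1241903 (0.52, adjusted p = 0.00312) were added. The 3 h count fell to 3 without replicate 1 of HIF-1α shRNA at 3 h, and also with floored values, in both cases with Klf2 and Klf7 lost. Overexpression against control called 4, 3 and 4 member probes, where 32.7%, 36.4% and 32.1% of all probes were called. Klf5 (higher), Klf13 (lower) and the brighter Klf6 probe (lower) were called at all 3 times. Klf9 was added when uninjured, and the dimmer Klf6 probe at 12 h (-0.80, adjusted p = 0.00323). The uninjured and 12 h values rest on 1 overexpression array each.

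Injury was examined next, as 3 h and 12 h after axotomy against uninjured within each construct. No member probe was called in any of these comparisons, and few probes were called on the whole array. In control 0% of all probes were called at 3 h and 0.0199% at 12 h, with HIF-1α shRNA 0.0199% and 0.259%, and under overexpression 0.0133% and 0%. Averaged over constructs, limma called 0.0265% of all probes at 3 h, 0.411% at 12 h and 0% for 12 h against 3 h, and 0 member probes in each. At an unadjusted p under 0.05, limma's count of member probes was 1 at each time in control, 2 at 3 h and 4 at 12 h with HIF-1α shRNA, and 0 and 3 under overexpression, out of 10. The shares of all probes at that threshold were 5.84% and 6.48% in control, 6.39% and 10.5% with HIF-1α shRNA, and 8.07% and 7.56% under overexpression. Averaged over constructs the count was 1 at 3 h, 2 at 12 h and 1 for 12 h against 3 h, where 7.19%, 11.3% and 10.9% of all probes passed.

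Klf9 gave the smallest unadjusted p of the members after injury in control. It differed from uninjured by 0.36 at 3 h (SE 0.131, adjusted p = 0.747) and by 0.57 at 12 h (SE 0.131, unadjusted p = 0.000312, adjusted p = 0.188), ranked 25 of 15086 by p. All 4 injured control arrays (296 to 363) lay above both uninjured ones (190.0 and 251). With HIF-1α shRNA its differences were 0.43 at 3 h (adjusted p = 0.553) and 0.26 at 12 h (adjusted p = 0.509), and under overexpression -0.03 and -0.06.

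Klf5 differed at 12 h by 0.44 with HIF-1α shRNA (adjusted p = 0.166) and by 0 in control. The brighter Klf6 probe differed at 12 h by -0.15 in control, -0.28 with HIF-1α shRNA and -0.40 under overexpression. Its average over constructs was -0.28 (SE 0.0763, unadjusted p = 0.00177, adjusted p = 0.133), and it was called with a spread that follows intensity and a robust prior (adjusted p = 0.0416). No interaction of construct and injury was called for a member or for any other probe. The shares called by limma were 0% over both constructs, 0% for HIF-1α shRNA and 0% for overexpression, and 3, 1 and 2 of the 10 member probes had an unadjusted p under 0.05, beside 6.32%, 5.63% and 5.81% of all probes. The 95% intervals for the members at 12 h in control were 0.48 to 0.66 wide on the log2 scale, from 2 arrays against 2.

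**Figure D4:**
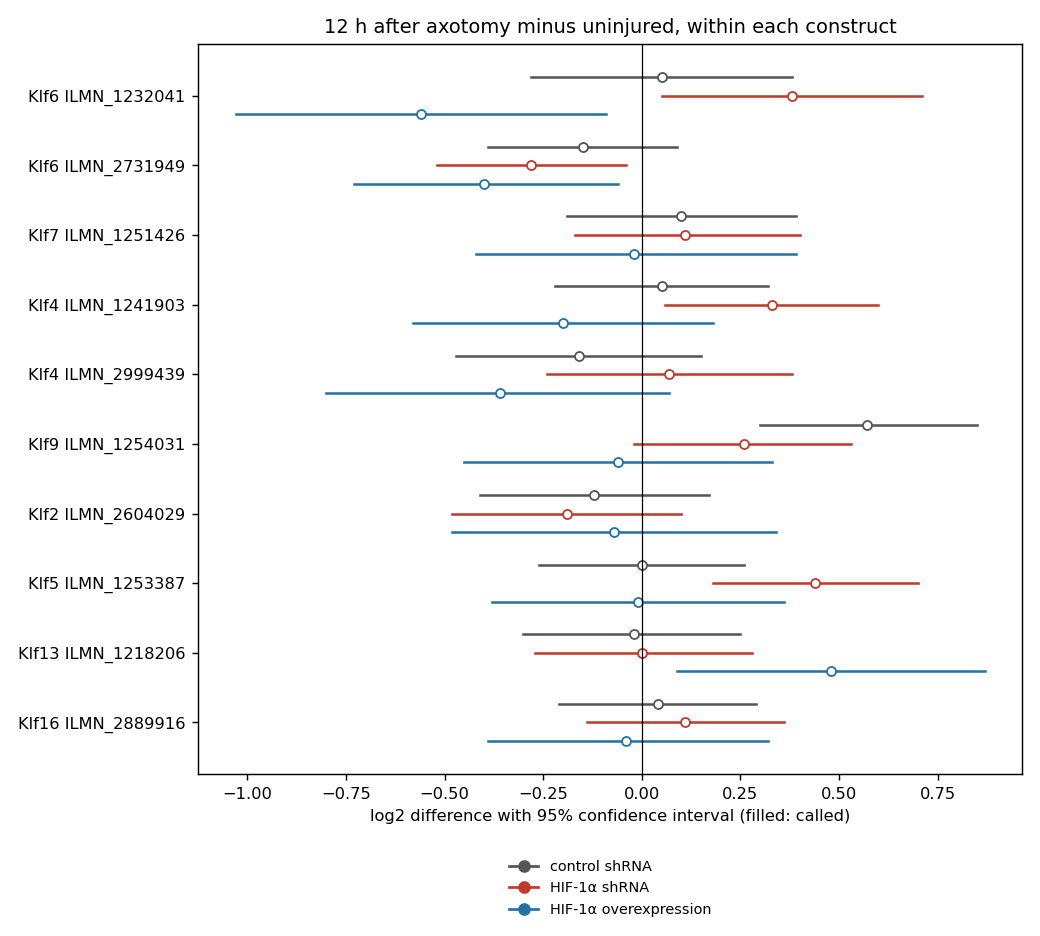
Log2 difference between 12 h after axotomy and uninjured cultures for each measurable member probe within each construct, with 95% confidence intervals; no point is filled, as none was called. Klf9 in control (0.57) lies farthest above 0, and the dimmer Klf6 probe under overexpression (-0.56) farthest below.

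Other genes around these factors were read from lists, with 1 probe a gene. Their counts are read against the shares of all probes. With HIF-1α shRNA 27.9% of all probes were called higher and 28.9% lower, and under overexpression 24.3% and 29%. The medians of all probes were -0.02 and -0.03. Of 16 other Klf and Sp family genes, 7 were measurable. With HIF-1α shRNA 0 of them rose and 1 fell, the general activator Sp1 (adjusted p = 0.0119). Sp1 lay at background, above 16 on 3 of 6 control arrays (mean 16.7 ± 4.29, SD) and 0 of 6 with HIF-1α shRNA (6.37 ± 3.56), and was at least 1.05-fold lower. It counted as measurable only through arrays of the other constructs, so its fall was partly built into its choice. Under overexpression Klf1, the erythroid member, rose (0.34, adjusted p = 0.000938), Sp6 fell (-0.33, adjusted p = 0.0048), and 5 were not called. The list's median was -0.01 with HIF-1α shRNA and -0.08 with overexpression.

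Of the cofactors and turnover genes, 7 of 12 were measurable, and 3 rose and 0 fell with HIF-1α shRNA. They were Sin3a, the corepressor scaffold recruited by Klf9 and its relatives (0.63, adjusted p = 2.22e-07), the acetyltransferase Ep300 (0.55, adjusted p = 7.3e-06) and the ubiquitin ligase Wwp1 (0.22, adjusted p = 0.0107). Under overexpression Sin3a (0.44, adjusted p = 0.000138) and Ep300 (0.25, adjusted p = 0.0296) rose and the deacetylase Hdac2 fell (-0.20, adjusted p = 0.044). The median was 0.1 in both comparisons.

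The list of known inputs to these genes holds the MEK5-ERK5-MEF2 kinase pathway that drives Klf2 and Klf4, hormone receptors with their targets, and TGF-β signalling. Of its 17 genes 14 were measurable, and 8 rose and 0 fell with HIF-1α shRNA, while 4 rose and 3 fell under overexpression. The medians were 0.23 and 0.1. Among the 8, Tgfb1 was never above 16 in control, so a difference from control was built into its choice. With HIF-1α shRNA the smallest p were those of the TGF-β mediator Smad3 (0.86, adjusted p = 4.52e-09), the glucocorticoid-induced gene Tsc22d3 (0.67, adjusted p = 2.09e-08) and the receptor Tgfbr2 (0.62, adjusted p = 3.33e-07). Under overexpression Mef2c rose (1.74, adjusted p = 6.49e-13), and Tsc22d3 (-1.06, adjusted p = 2.53e-10) and Tgfbr1 (-0.86, adjusted p = 4.68e-08) fell.

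Transcription factors tied to regeneration were measurable for 11 of 16 genes. With HIF-1α shRNA 9 rose and 1 fell (median 0.43), and under overexpression 7 rose and 2 fell (median 0.66). The immediate-early factors Egr1 (3.18, adjusted p = 1.67e-16) and Fos (1.87, adjusted p = 3.09e-13) and the factor Cebpb (0.69, adjusted p = 1.68e-08) led with HIF-1α shRNA. Junb (2.73, adjusted p = 4.4e-16), Egr1 (2.34, adjusted p = 2.67e-13) and Fos (1.94, adjusted p = 2.41e-12) led under overexpression. Junb was above 16 on 1 of 6 control arrays (mean 7.38 ± 6.92, SD) and on 4 of 4 under overexpression (414 ± 36.9). Control arrays alone would not have made Junb measurable, so a difference from control was partly built into its choice. The 2 that fell under overexpression were Myc (-0.32) and Creb1 (-0.42). Neither was ever above 16 there, and both counted as measurable only through arrays of the other constructs. Their falls were thus partly built into their choice as well.

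Reported targets of these factors and neuronal growth genes were measurable for 9 of 11, with 3 higher and 1 lower with HIF-1α shRNA (median 0.08) and 4 higher and 2 lower under overexpression (median 0.09). Cdkn1a, the cell cycle inhibitor p21 and a reported target of Klf4 and Klf6, rose under both (1.83, adjusted p = 1.36e-13, and 1.90, adjusted p = 9.45e-13). Ntrk2, which encodes the BDNF receptor TrkB, was above 16 on 0 of 6 control arrays (mean -0.986 ± 2.83, SD), 3 of 6 with HIF-1α shRNA (14 ± 6.14) and 4 of 4 under overexpression (60.5 ± 17.1). It was called higher under both, at least 3.78-fold under overexpression (adjusted p = 2.5e-08). With HIF-1α shRNA (adjusted p = 0.00312) its mean was below 16 and no fold is given. Ntrk2 counted as measurable only through arrays of the other constructs, so a difference from control was built into its choice. Tubb3, neuronal tubulin, fell with HIF-1α shRNA (-0.27, adjusted p = 0.00965), and Stmn2, a growth cone protein, fell under overexpression (-1.54, adjusted p = 3.49e-12).

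Markers of the cells in these cultures were summed on each array, and calls were counted as for the lists. Of all probes 56.8% were called with HIF-1α shRNA and 53.3% with overexpression. Sums did not overlap between control and either construct for sensory neuron, glia and fibroblast markers. Smooth muscle and pericyte sums lay apart from control only with HIF-1α shRNA, and macrophage sums only under overexpression. Endothelial sums overlapped across all constructs. Sensory neuron markers summed over 8 genes ran from 44227 to 49528 in control, 26178 to 31424 with HIF-1α shRNA and 34263 to 38199.7 under overexpression. Of 7 measurable genes 1 rose and 4 fell with HIF-1α shRNA, 1 rose and 5 fell under overexpression, and Nefl was at background throughout. Schwann cell and satellite glia markers (5 genes, 2 of 3 measurable ones lower under each construct) summed to 929 to 1065, 395 to 516 and 469 to 599 in the same order, with Fabp7 and Cdh19 at background throughout. S100b, 1 of the 2 lower ones under overexpression (-0.8), was never above 16 there, so its fall was partly built into its choice.

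Fibroblast markers (7 genes) summed to 64.4 to 135 in control, 349 to 488 with HIF-1α shRNA and 188 to 254 under overexpression. Of 3 measurable ones 2 rose with HIF-1α shRNA, Dcn (1.13) and Pdgfra (1.84), and 1 fell, Twist2 (-0.42). Under overexpression Twist2 rose (1.2) and 2 fell, Dcn (-0.6) and Pdgfra (-0.35). Each of the 3 thus moved in opposite directions under the 2 constructs, although both sums lay above control. Pdgfra was never above 16 under overexpression, so its fall there was partly built into its choice. Col1a1, Col3a1 and Lum were at background throughout. Smooth muscle and pericyte markers (5 genes) summed to 5.49 to 60.2, 252 to 323 and 26.3 to 55.5, with 2 of 3 measurable ones higher with HIF-1α shRNA, 1 higher and 1 lower under overexpression, and Tagln and Myh11 at background throughout. The lower one, Rgs5 (-0.32), was never above 16 under overexpression, so its fall was partly built into its choice. Endothelial markers (7 genes, 1 of 5 measurable ones higher and 0 lower under each construct) summed to 2178 to 3093, 2661 to 3519.6 and 2248 to 3011, with Cdh5 and Cldn5 at background throughout. Macrophage markers (7 genes, 1 of 3 measurable ones higher and 1 lower under each) summed to 90.6 to 133, 97.3 to 148 and 183 to 300.2, with Ptprc and Itgam at background throughout. The lower one was C1qb under both constructs (-0.31 and -0.3). It was above 16 on control arrays only, so both falls were built into its choice. In such mixed cultures fewer cells of a type and less RNA per cell cannot be told apart, and the part of cell composition in the differences of the Krüppel-like factors was not tested.

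The genes whose log2 values followed each axon growth member most closely over the 16 arrays were found among 10443 named genes, as a description over arrays that share 3 constructs. For Klf6 they were Cachd1 (Pearson r 0.985), Mmp17 (0.983) and Elmo1 (0.981), and for Klf9 Ccnd2 (0.989), Sct (0.983) and Fndc10 (0.982). For Klf7 they were Calcoco1 (0.933), Arl8b (0.918) and Ttc5 (0.903), and for the brighter Klf4 probe Fcer2a (0.73), Nagpa (0.68) and Adam33 (0.672). Among the members themselves, the brighter Klf6 probe followed Klf13 (0.86) and Klf7 (0.75), and Klf9 followed Klf5 (0.76), Klf2 (0.76) and Klf6 (0.7).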

How the data were processed

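Total RNA was amplified, labelled with biotin and read on Illumina Mouse Ref-8 arrays, per the labels' protocols and the study description. The submitters' processing notes name GenomeStudio, with settings not given in the sources. The deposited table holds intensity values for 25697 probes. From the values themselves, these intensities are linear, background-subtracted and quantile-normalized: 27.2% lie below 0. A second table gave gene symbols only, and its 32 value columns, whose names match no sample, were not used.

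Intensities were corrected with normexp (offset 50), quantile-normalized again and taken to log2, using limma 3.58.1 (R 4.3.3). With a background SD of 6.42, the cutoff of 16 lies 2.49 SDs above 0, and 47.8% to 47.9% of probes passed it on each array. The 9 group means were estimated together in limma from all 16 arrays (7 residual and 12.6 prior degrees of freedom); a group of 1 array is assumed to vary like the others. A fold is the fitted difference taken out of log2; "at least" folds set 16 in place of a group never above it. The fit was tested on simulated data. Each list gene stands by its brightest probe, and up to 3 called genes of smallest p are named per list and comparison. One listed marker gene is not reported here and was left out of its list. The members, lists, offset and cutoff were chosen with earlier results of these data known.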

Additional observations from a re-analysis of the deposited data

Results flagged for a closer look

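Each group here holds at most 2 arrays, so single arrays were set against the other arrays of their construct with the 3 times pooled, for 10 probes and 3 constructs, 30 sets in all; chance flags about 1 set in 20, and 1 was found. Klf7 on replicate 2 of HIF-1α overexpression at 3 h read 8020.1 (log2 12.98), below the nearest of the other 3 overexpression arrays (log2 13.13), a gap of 0.901 of the whole range. Without this array Klf7 stayed uncalled in overexpression against control.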

How the results depend on the processing

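Counts of called member probes stayed within 1.5 times of the reported count in 531 of 534 repeats. The exceptions were the 3 h count with HIF-1α shRNA against control (5) and the 12 h count averaged over constructs (0). The first fell to 3 with values floored at 16 and ran from 3 to 6 when 1 array at a time was left out. The second was 1 with an intensity trend and robust prior. The repeats include injury and interaction counts, which were 0 where few or no probes were called on the whole array, so these could hardly move. Construct counts moved more: with 1 array left out, those against control ran from 4 to 7 for HIF-1α shRNA at 12 h and from 2 to 4 for overexpression at 3 h. The mean of Klf6 and Klf7 minus that of Klf4 and Klf9 kept its direction everywhere and moved by more than the replicate SD once, to -0.71 with floored values. Of single probes in the averaged comparisons, no call changed sign, 7 repeats lost a call and 6 gained one; 7 repeats changed the sign of an uncalled difference. Replicate numbers were not used to pair the arrays in the main fit. Over 21 pairs of groups, the correlation of replicate 1 minus replicate 2 ran from -0.16 to 0.3 (median 0.04). It was above 0.1 in 6 of the 21. With the replicate block the 3 averaged construct comparisons called 8, 5 and 7 member probes, and the other counts did not change. Median differences of all probes moved by under 0.1 with cyclic loess. Klf2, Klf4 and Klf10 lie near background, which limits what can be read of them. Leaving out a group's single array drops its time, and that time's count was then not fitted.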
